A study of Mus musculus with 15 samples.

Results

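The chromosome 7 piRNA cluster at 69.9 Mb lies at chr7:69874042-69960706 (mouse build mm10), is listed as chr7_69874042_69960706 and spans 86.665 kb. Its members are all deposited rows on chromosome 7 that overlap this interval, on either strand and of any length, in all 15 libraries. These are 201568 of 8128951 loci, a locus being 1 combination of start, end and strand with its read count. The cluster was chosen because a locus seen almost only after CMC treatment lies in it, so differences between CMC and mock libraries are given as a description, with no p-value. Small RNA came from the testes of male C57Bl/6 mice aged 8 weeks in every group, with no transgene or mutant allele named. Of 5 groups with 3 libraries each, the mock and CMC groups form 1 set prepared with the NEBNext kit, and CMC (a carbodiimide that forms a bulky adduct on pseudouridine) was the only treatment that differed. The input, Ψ-IP and flow-through groups form a second set prepared with the Nextflex kit, in which Ψ-IP is the RNA bound and eluted from an antibody against pseudouridine (Ψ), flow-through the unbound RNA and input the RNA before the antibody. The labels do not say which mice gave which library, so p-values measure the spread between libraries, which may be technical. The kit and the set of libraries cannot be told apart, and no test is made across the sets.

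piRNAs are small RNAs bound by PIWI proteins in the germ line, where they direct the silencing of transposons and the cleavage of other transcripts. In the mouse testis most piRNAs at the pachytene stage of meiosis come from long single-stranded precursors transcribed from a limited number of genomic clusters. Many of these clusters have a pair of precursors that run away from each other from 1 shared promoter. The precursors are cut into pieces whose 5′ end is usually a uridine, and the 3′ ends are then trimmed and methylated. Pseudouridine is an isomer of uridine made by pseudouridine synthases after transcription. An antibody enriches RNA that carries it, while the CMC adduct on it stops reverse transcriptase.

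Sequences are shown for the stretches of the cluster that lie in annotated exons, because they let the first base of its small RNAs be read. They are taken from the GENCODE transcripts of the same build, are written 5′ to 3′ with T for U, and have the 5′ base in capitals. Gm44690, an annotated processed pseudogene on the minus strand at chr7:69883979-69884360, held 1379 sense loci. 4933423L19Rik, a transcript of unconfirmed coding status on the plus strand at chr7:69948900-69950363, held 900 sense loci. Abundant members of each are as follows.
69884246-69884274, minus, Gm44690: Ttcaaattctgatcttggtcactctgctc
69883989-69884018, minus, Gm44690: Taaactttgaccgagcatattgaacacatt
69884279-69884307, minus, Gm44690: Tgaattcagtctgtgcagagttgtgctgg
69950302-69950330, plus, 4933423L19Rik: Tacaaagacaggtatttgaagggatctta

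Each of these 4 small RNAs starts with T. In the sense counts of Gm44690, 92.5% in the mock libraries and 90.3% in the input libraries started with T, against 32.2% T in the transcript itself. In 4933423L19Rik the share was 93.4% in mock and 88.7% in input, against 30.2% T in the transcript. This plus-strand share rests on file starts that count from 0, and with starts read as counting from 1 it would be 26.6% in mock and 20.3% in input, while minus-strand 5′ ends do not depend on that reading. The few antisense counts of Gm44690, on the plus strand, mostly did not start with T. Their T share was 6.90% of 290 counts in mock and 10.8% of 102 in input, or 9.66% and 24.5% with starts counted from 1. A first T is the usual mark of piRNAs, and it could be read for 0.496% of the cluster's counts in Gm44690 and 0.0499% in 4933423L19Rik. The first listed RNA stood at 28.4, 29.7 and 29 CPM (counts per 1000000 of a library's total piRNA count) in the 3 mock libraries and at 0.64, 0.66 and 1.01 CPM in the 3 input libraries. The third showed the opposite order, with 0.22, 0.27 and 0.22 CPM in mock and 6.42, 10.1 and 6.46 CPM in input. The second was at 6.46, 12.3 and 8.90 CPM in input and 20.04, 19.9 and 27.9 CPM in Ψ-IP, so that every Ψ-IP library was above every input library (log2 difference 1.18, SE 0.23, edgeR adjusted p = 6.7e-06). The first was lower in Ψ-IP at very low counts, with 16, 11 and 19 in input and 2, 3 and 4 in Ψ-IP (log2 difference -2.08, SE 0.64, edgeR adjusted p = 0.0077). That call was lost with DESeq2 (adjusted p = 0.026), with the replicate number as a block (edgeR adjusted p = 0.013), with all 9 libraries of the set in 1 fit (edgeR adjusted p = 0.021), without any 1 of the input libraries and without the first or the third Ψ-IP library (log2 differences of -2.20, -2.17, -1.88, -1.96 and -1.97). The other listed RNAs differed between Ψ-IP and input by -0.21 (edgeR adjusted p = 0.58) in Gm44690 and by -0.40 (edgeR adjusted p = 0.39) in 4933423L19Rik, which did not pass. Overlapping neighbours of the second RNA went the other way, and their sequences are not shown. 69883983-69884013 had 13.9 ± 3.3 CPM in input and 9.57 ± 2.64 in Ψ-IP (log2 difference -0.69, edgeR adjusted p = 0.017). This did not pass, except with the replicate number as a block (edgeR adjusted p = 0.0084), with a minimum of more than 5 counts (edgeR adjusted p = 0.0078) or without the second Ψ-IP library (log2 difference -0.95, edgeR adjusted p = 0.0014). 69883983-69884011 fell from 4.32 ± 0.65 to 2.12 ± 0.36 CPM (log2 difference -1.19, SE 0.30, edgeR adjusted p = 0.00088). The call at 69883983-69884011 was lost without the second input library (log2 difference -1.07, edgeR adjusted p = 0.012) or the third Ψ-IP library (log2 difference -1.06, edgeR adjusted p = 0.011). These RNAs fall outside the rule for named loci and were picked after their values were seen, since sequence existed for them.

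The cluster held 2.92% to 3.23% of the counts of each library and ranked 12 of 647 clusters by mean share. For comparison, the highest-ranked cluster, on chromosome 17, held 9.39% on average. Total counts were 11575705 to 58399368 per library, and the cluster received between 342564 and 1708100 of them. The counts lay on the 2 strands in separate blocks. A single point between 69909644 and 69909650 divided them, with minus-strand RNAs to its left and plus-strand RNAs to its right. These accounted for 99.7% ± 0.02 of cluster counts in mock and 99.6% ± 0.02 in input (SD, n = 3). The minus-strand arm was 35.6 kb long and the plus-strand arm 51.1 kb. The 5′ ends with at least 10 CPM that lay nearest the point were 69909537 on the minus strand and 69909803 on the plus strand, with 265 nt between them.

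**Figure D1:**
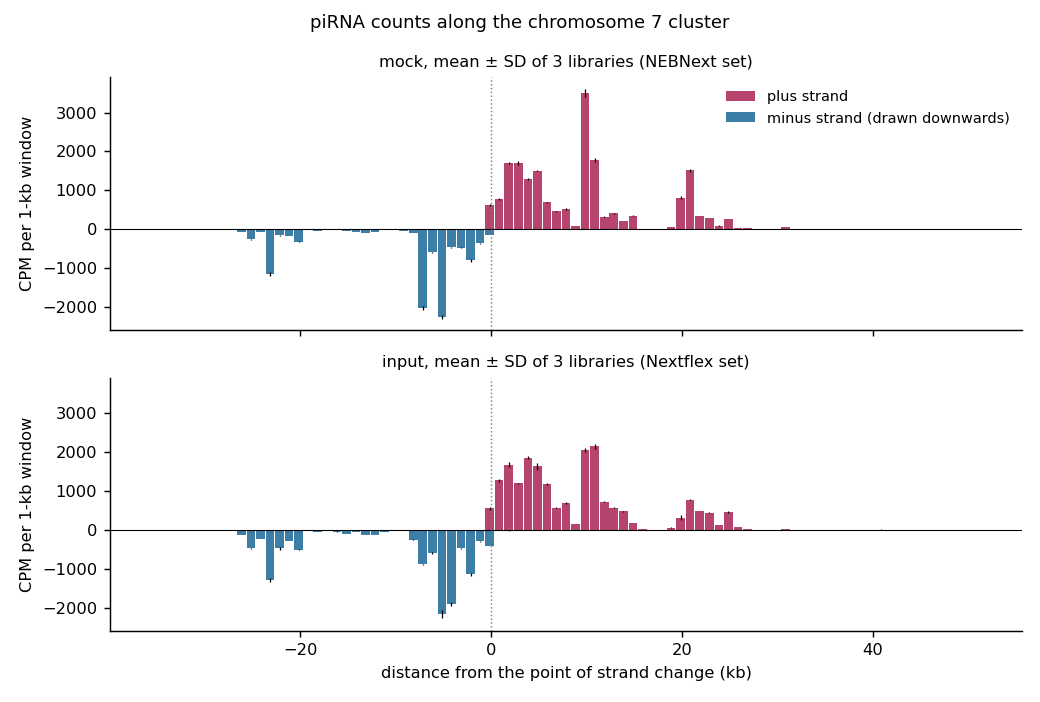
CPM in 1-kb windows of 5′ ends, with plus-strand windows upward and minus-strand windows downward, against the distance in kb from the point where the strand changes, for the mean of the 3 mock and of the 3 input libraries. Minus-strand RNAs fill the 35.6 kb to the left and plus-strand RNAs the 51.1 kb to the right. Output is uneven along each arm.

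The plus arm was the larger source in every group. It gave 66.5% ± 0.3 of cluster counts in mock, 68.5% ± 0.1 with CMC, 62.1% ± 0.5 in input, 62.0% ± 0.9 in Ψ-IP and 67.7% ± 0.9 in flow-through (SD, n = 3 each). Output within an arm was uneven. The 3 windows of 1 kb with most counts held 33.2% of the plus arm and 41.4% of the minus arm, by mean CPM over the 15 libraries. Of 43844 distinct 5′ ends, 240 held 50% of the cluster's mean CPM and the 10 highest held 13.4%. Of the loci, 944 held 50%, and 33.7% had only 1 count in all libraries together. The 6129 loci with a count in all 15 libraries carried 73.5% of the cluster's counts.

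piRNAs of 30 nt were the most frequent in all 15 libraries. They made up 26.1% ± 0.8 of cluster counts in mock and 32.4% ± 0.4 in input (SD, n = 3), beside 25.4% and 29.8% of all counts in the series. RNAs of 24 to 33 nt were 96.5% of cluster counts in mock and 97.8% in input. The mock and CMC files held no cluster count of 34 nt or more, whereas such lengths were 0.968% of cluster counts in input. RNAs of 25 to 27 nt, the length typical of MILI-bound piRNAs, were 15.7% ± 0.4 in mock, 17.4% ± 0.5 with CMC, 10.8% ± 0.4 in input and 9.53% ± 0.37 in Ψ-IP. In all 5 groups this class was more frequent on the plus arm than on the minus arm, with 18.1% against 10.8% in mock and 13.2% against 6.82% in input. The class of 29 to 31 nt, the length typical of MIWI-bound piRNAs, was correspondingly larger on the minus arm, with 69.6% against 57.2% in mock and 77.0% against 68.6% in input.

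**Figure D2:**
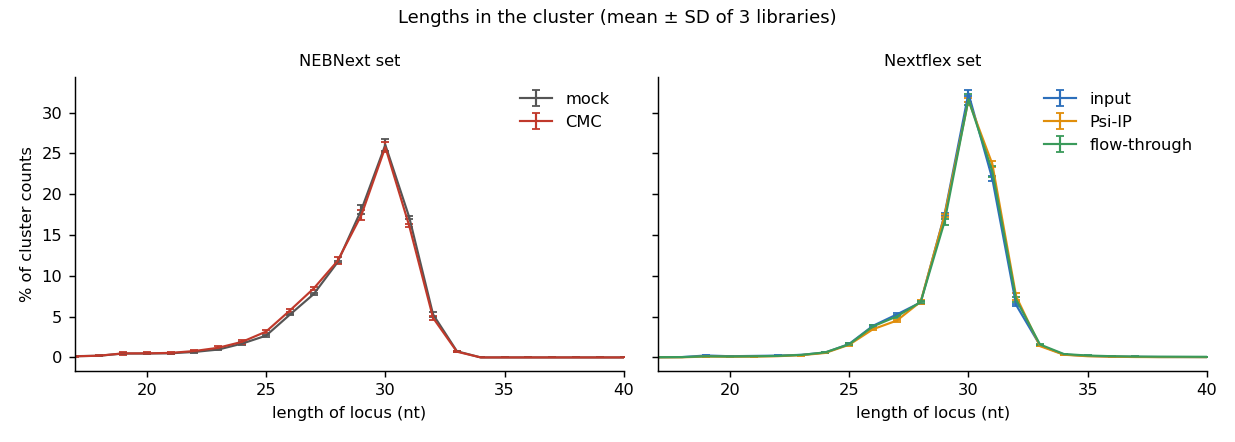
Percent of cluster counts at each length in nt from 17 to 40, as the mean and SD of 3 libraries in each of the 5 groups. The peak is at 30 nt in every group, with the Nextflex groups above the NEBNext groups there and below them from 25 to 27 nt.

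Repeats supplied little of the cluster. Loci annotated to a repeat held 6.40% ± 0.14 of cluster counts in mock and 5.10% ± 0.38 in input, against 14.5% and 15.3% of all counts in the series (SD, n = 3). The repeat with most counts in mock was RMER17A2, a long terminal repeat of an ERVK endogenous retrovirus at chr7:69929249-69930074. It gave 2.74% of cluster counts in mock and 0.937% in input, nearly all of it on the plus strand. L2b, a piece of an ancient LINE element on the plus arm, gave 1.06% in mock and 0.347% in input. MLT1B on the minus arm, the long terminal repeat of a MaLR retrotransposon, went the other way with 0.837% in mock and 1.08% in input, where it was above RMER17A2. Lx7, a LINE-1 fragment on the minus arm, stood at 0.224% in mock and 0.698% in input.

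**Figure D3:**
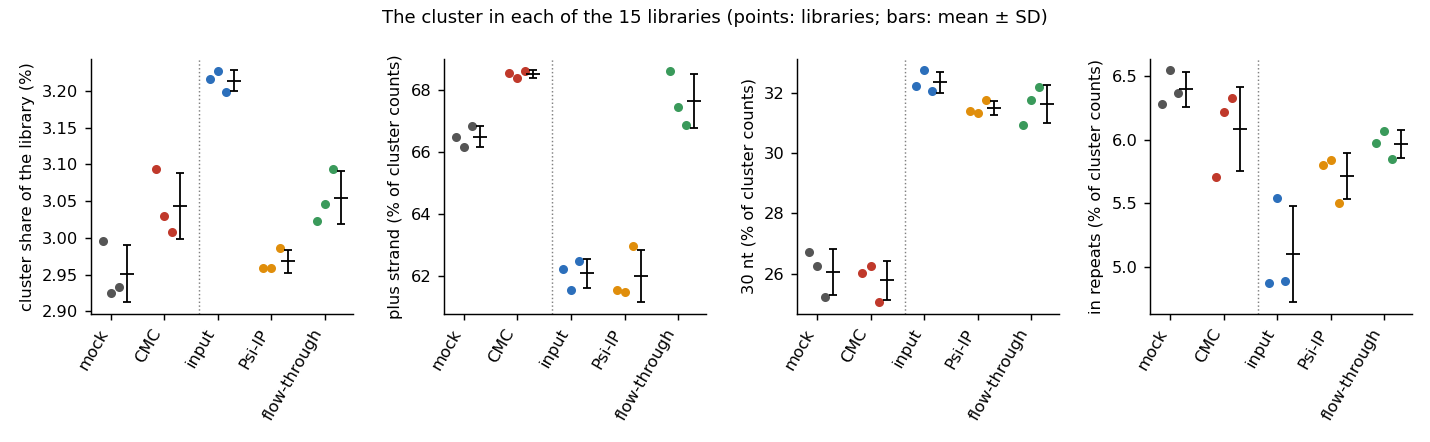
One point per library and a bar at the mean of each group for 4 measures of the cluster, namely its percent of all library counts, the percent of its counts on the plus strand, the percent at 30 nt and the percent in repeats. The 3 libraries of a group lie close together, the flow-through group lies above input and Ψ-IP in plus-strand share, and the 30-nt share is higher in the Nextflex libraries.

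The most abundant loci lay on both strands. The 28-nt locus 69919854-69919881 on the plus strand had the highest mock level, with 858, 814 and 884 CPM, and 80.2, 75.6 and 94.0 CPM in input. The 30-nt locus 69919896-69919925 on the same strand had 700, 671 and 636 CPM in mock and 268, 294 and 285 CPM in input. On the minus strand, 69904047-69904076 had 507, 524 and 519 CPM in mock and 79.2, 89.4 and 73.9 CPM in input. The highest level in input was at the 31-nt locus 69905790-69905820 on the minus strand, with 421, 530 and 413 CPM, where the mock libraries had 1.21, 1.23 and 0.80 CPM. The library sets thus ranked the same RNAs differently. Of the 100 highest 5′ ends in mock, 89 were among the 100 highest with CMC and 36 among the 100 highest in input. Within the Nextflex set the ranks also differed. Of the 100 highest in input, 63 were among the 100 highest in Ψ-IP and 54 among the 100 highest in flow-through.

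The Ψ-IP to input comparison asks whether the antibody enriched the cluster, and the cluster as a whole was slightly lower in Ψ-IP. It held 3.20% to 3.23% of counts in the input libraries and 2.96% to 2.99% in the Ψ-IP libraries, which did not overlap. The fitted Ψ-IP to input difference was -0.10 on the log2 scale (SE 0.02, edgeR adjusted p = 0.00031), a fold of 0.93. In that comparison 10.4% of 547 clusters tested were lower in Ψ-IP, and the middle 50% of all clusters ranged from -0.12 to 0.09, so this cluster lay inside the usual range. The plus arm fell by 0.09 (SE 0.02, edgeR adjusted p = 0.0049) and the minus arm fell by 0.09 (SE 0.02, edgeR adjusted p = 0.0050), where 14.8% of all strand totals were lower. Both of these passed the 0.01 threshold narrowly and lost it with DESeq2's size factors (adjusted p = 0.010 for each). The plus arm lost it without the third input or the first or second Ψ-IP library (log2 differences of -0.10, -0.09 and -0.08). The minus arm lost it without the second or the third input library or any 1 of the Ψ-IP libraries (log2 differences from -0.11 to -0.08).

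Flow-through separated the arms. The minus arm was lower in flow-through than in input (log2 difference -0.29, SE 0.03, edgeR adjusted p = 2.3e-05), where 17.4% of strand totals were lower. The plus arm differed by 0.06 (SE 0.02, edgeR adjusted p = 0.026), which did not pass. Against flow-through, Ψ-IP was higher on the minus arm (0.19, SE 0.03, edgeR adjusted p = 7.5e-05) and lower on the plus arm (-0.16, SE 0.02, edgeR adjusted p = 9.0e-05), beside 20.7% and 25.9% of all strand totals. The arm totals that involve flow-through were fitted without the alternative settings and left-out libraries used for Ψ-IP against input, so their stability was not tested. The share of plus-strand counts was 66.9% to 68.6% in flow-through and 61.5% to 62.5% in input, without overlap (mean difference 5.57 percentage points, two-sided exact permutation p = 0.1, the smallest that 3 against 3 libraries allow). Between Ψ-IP and input it differed by -0.09 points (two-sided exact permutation p = 0.8). These comparisons share libraries and are not independent. For the cluster total, Ψ-IP against flow-through was -0.06 (edgeR adjusted p = 0.036, where 20.5% of clusters were called lower) and flow-through against input was -0.04 (edgeR adjusted p = 0.088). The 30-nt share was lower in all 3 Ψ-IP libraries than in any input library, by 0.85 points on average (difference -0.85, two-sided exact permutation p = 0.1). With each locus counted once in place of its reads, that difference turned to 2.22 points. The repeat share was 0.61 points higher in Ψ-IP with overlapping libraries (two-sided exact permutation p = 0.2). It ranged from 0.15 to 0.63 points under other processing and from 0.50 to 0.83 points with 1 library left out.

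Windows that were higher and windows that were lower in Ψ-IP occurred on both arms. Of 67 windows of 1 kb tested, 17 (25.4%) were higher in Ψ-IP than in input and 21 (31.3%) were lower, beside 18.4% and 20.1% of all 2898 windows tested in the series. On the plus strand 5 of 34 were higher and 13 lower. On the minus strand 12 of 33 were higher and 8 lower. Without the third input library 25 windows in place of 38 passed the threshold. The median over the cluster's windows was 0.02, beside 0.01 over all windows. Against flow-through, 24 of the 67 windows were higher in Ψ-IP and 13 lower (28.3% and 28.1% of all windows), and in flow-through against input 15 were higher and 24 lower (26.2% and 25.6% of all windows).

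The largest fall was next to the point of strand change. The plus-strand window 69909001-69910000 had 601, 526 and 532 CPM in input and 276, 251 and 281 CPM in Ψ-IP (log2 difference -1.03, SE 0.06, edgeR adjusted p = 1.3e-07). Here the mock libraries had 649, 637 and 609 CPM. On the other side of the point, the minus-strand window 69908001-69909000 had the largest rise, from 289, 299 and 276 CPM in input to 513, 478 and 491 CPM in Ψ-IP (log2 difference 0.78, SE 0.05, edgeR adjusted p = 2.0e-07). No library of one group overlapped the other in either window. In both windows flow-through had moved the same way from input, to 326 ± 51 CPM in the first and 452 ± 14 CPM in the second (SD, n = 3).

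The 3 most abundant plus-strand windows did not move together. Window 69911001-69912000 rose from 1678 ± 67 to 2439 ± 119 CPM (log2 difference 0.55, SE 0.05, edgeR adjusted p = 4.4e-06). The 5′ end 69911170 alone accounted for 34.1% of that rise, going from 116 to 376 CPM. Flow-through stood as high as Ψ-IP in this window, at 2486 ± 264 CPM (Ψ-IP against flow-through -0.02, edgeR adjusted p = 0.83). Window 69920001-69921000 fell from 2149 ± 63 to 1671 ± 86 CPM (log2 difference -0.36, SE 0.05, edgeR adjusted p = 7.5e-05), while flow-through stood at 2630 ± 42 CPM. Window 69919001-69920000 differed by -0.22 (SE 0.05, edgeR adjusted p = 0.0013), a call lost without the third input library (edgeR adjusted p = 0.012), with 2048 ± 54 CPM in input, 1748 ± 47 in Ψ-IP and 1665 ± 115 in flow-through. The plus-strand window 69924001-69925000, which holds the L2b fragment, rose from 180 ± 10 to 286 ± 10 CPM (log2 difference 0.68, SE 0.06), and flow-through was also above input there, at 253 ± 15 CPM.

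On the minus arm, window 69904001-69905000 fell from 2135, 2277 and 2082 CPM in input to 1147, 1163 and 1122 CPM in Ψ-IP (log2 difference -0.91, SE 0.05, edgeR adjusted p = 1.3e-07). Flow-through was below input as well, at 1352 ± 163 CPM. The 5′ end of the window with the largest fall, 69904857, gave 23.4% of that difference. Window 69902001-69903000, on the same strand, rose from 879, 891 and 881 to 1187, 1196 and 1164 CPM (log2 difference 0.43, SE 0.04, edgeR adjusted p = 6.9e-06). A single 5′ end, 69902380, gave 79.8% of that rise, and flow-through stood at 922 ± 31 CPM. The window 69886001-69887000, which holds the locus seen almost only after CMC, had 1280 ± 50 CPM in input and 1321 ± 69 CPM in Ψ-IP (log2 difference 0.05, SE 0.05, edgeR adjusted p = 0.43), and its libraries overlapped. Window 69894001-69895000 rose from 100 ± 6 to 157 ± 9 CPM (log2 difference 0.65, SE 0.07, edgeR adjusted p = 5.2e-06), with 87.9 ± 3.4 CPM in flow-through. The few plus-strand counts inside the minus arm at 69886001-69887000 differed by -0.72 (SE 0.11, edgeR adjusted p = 0.00018), at a level of only 12.5 CPM in input.

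**Figure D4:**
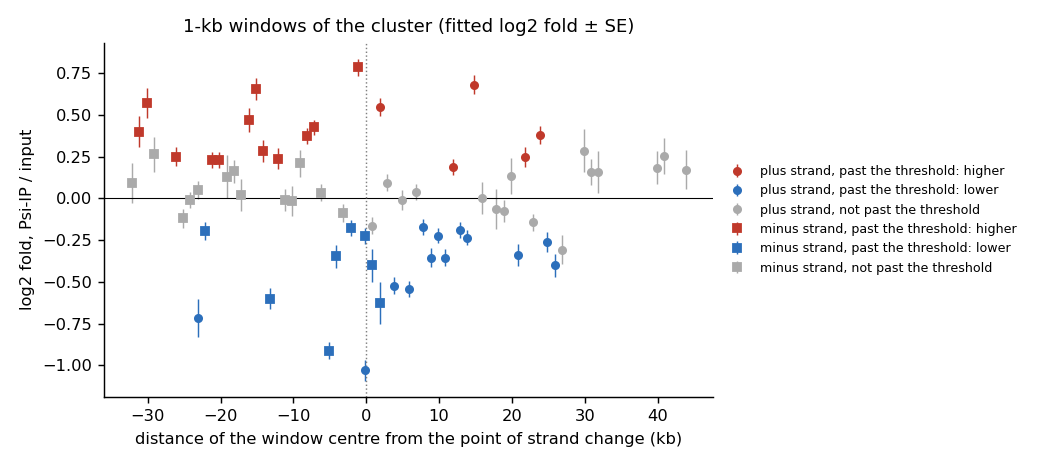
Fitted log2 difference of Ψ-IP against input, with bars of 1 standard error, for the 67 windows of 1 kb tested. The horizontal axis is the distance in kb from the point where the strand changes, and the strands have different markers. Windows between -1.03 and 0.78 lie on both sides of zero along both arms.

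At the level of single loci the cluster was close to the series as a whole. Of 21597 loci tested, 1127 (5.22%) were higher in Ψ-IP than in input and 2800 (13.0%) were lower, beside 5.45% and 10.7% of all 686863 loci tested. The median log2 difference was -0.24, beside -0.10 for all loci. Leaving out the first input library gave 522 higher and 1685 lower loci, and leaving out the third gave 560 and 1944. All 9 libraries of the set in 1 fit gave 537 and 1823. Against flow-through, 2020 (9.35%) were higher and 786 (3.64%) lower, beside 9.3% and 3.56% of all loci. Without the first or the second Ψ-IP library, 520 or 488 in place of the 786 were lower. In flow-through against input, 1089 (5.04%) were higher and 2222 (10.3%) lower, beside 6.45% and 9.73%. Summed by 5′ end, 775 of 10435 (7.43%) were higher in Ψ-IP than in input and 1412 (13.5%) lower, beside 7.67% and 11.2% of all 5′ ends. Without the first input library, 505 in place of the 775 were higher. Of 924 5′ ends with at least 2 called loci, 257 had all of them higher, 647 had all lower and 20 were mixed, so that 97.8% went one way, beside 96.5% of 25615 such 5′ ends in all clusters.

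The largest falls reached far beyond the spread. The 30-nt locus 69904792-69904821 on the minus strand had 139, 113 and 147 CPM in input and 6.59, 4.67 and 4.51 CPM in Ψ-IP, a fitted 28.2-fold decrease (log2 difference -4.82, SE 0.24, edgeR adjusted p = 7.75e-75). In flow-through it had 39.5, 38.7 and 43.5 CPM, between both groups. In the mock and CMC libraries it stood at 24.2 ± 0.9 and 24 ± 1.4 CPM. The 29-nt locus 69904793-69904821 with the same 5′ end went from 29.2 ± 3.4 to 0.851 ± 0.427 CPM (log2 difference -5.23, SE 0.30). On the plus strand, 69913546-69913572, 27 nt long, had 31, 24.3 and 44 CPM in input and 2.91, 3.8 and 1.13 CPM in Ψ-IP (log2 difference -3.89, SE 0.26, edgeR adjusted p = 9.0e-43). Both other falls by the rule, 69910406-69910432 and 69910406-69910431, share a 5′ end and each had a log2 difference of -3.89.

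The largest rises were smaller, between 2.05 and 2.17 on the log2 scale. The 32-nt locus 69888062-69888093 on the minus strand had 2.19, 2.11 and 2.86 CPM in input and 11.2, 10.5 and 13.5 CPM in Ψ-IP (log2 difference 2.17, SE 0.27, edgeR adjusted p = 1.0e-13). Its flow-through values were 1.16, 0.86 and 0.56 CPM, below every input library. The 30-nt locus 69917801-69917830 on the plus strand had the same order, with 2.24 ± 0.43 CPM in input, 10.2 ± 3.3 in Ψ-IP and 0.609 ± 0.172 in flow-through. The order was different at 69911629-69911658 on the plus strand, which had 7.62, 11.3 and 9.38 CPM in input, 51.9, 44.7 and 35.6 CPM in Ψ-IP and 76.1, 45.6 and 36.4 CPM in flow-through. It rose against input (log2 difference 2.08, SE 0.22, edgeR adjusted p = 1.7e-17) and differed from flow-through by -0.02 (SE 0.26, edgeR adjusted p = 0.97). 69914185-69914214 likewise rose against input by 2.14 (SE 0.27), with 14.9 ± 1.7 CPM in flow-through beside 9.63 ± 1.64 CPM in Ψ-IP. At 69920241-69920269 Ψ-IP was above both, with 16.3 ± 4.7 CPM beside 3.54 ± 0.25 in input and 5.49 ± 0.65 in flow-through.

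Among the 10 most abundant loci, 69911170-69911200 rose from 63.2 ± 15.1 to 203 ± 45 CPM (log2 difference 1.56, SE 0.20, edgeR adjusted p = 7.0e-13) and had 282 ± 53 CPM in flow-through. The minus-strand loci 69902352-69902380 and 69902353-69902380 also rose, with log2 differences of 1.19 (SE 0.20) and 0.99 (SE 0.20). 69904047-69904076 fell from 79.2, 89.4 and 73.9 to 21.7, 28.8 and 35.2 CPM (log2 difference -1.62, SE 0.21, edgeR adjusted p = 1.2e-12). 69919896-69919925 fell from 282 ± 13 to 150 ± 31 CPM (log2 difference -1.05, SE 0.19, edgeR adjusted p = 1.3e-06). At 69905790-69905820 the input values of 421, 530 and 413 CPM overlapped with the Ψ-IP values of 263, 469 and 171 CPM, and its fall (log2 difference -0.74, edgeR adjusted p = 0.00073) was not called by DESeq2 (adjusted p = 0.19) and was lost without the first or second input library or the first or the third Ψ-IP library (log2 differences of -0.79, -0.62, -0.60 and -0.47). The other 4 did not pass the threshold. These were 69919854-69919881 (log2 difference 0.54, edgeR adjusted p = 0.026, which passed without the second Ψ-IP library), 69920412-69920442 (0.29), 69930660-69930686 (-0.29) and 69929816-69929847 in RMER17A2 (0.45, which passed without the second input library).

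The locus that chose the cluster is 69886032-69886059 on the minus strand, 28 nt long and outside any repeat. It had 0, 5 and 0 counts in the mock libraries and 628, 316 and 308 counts in the CMC libraries, or 12.8, 13.1 and 11.3 CPM with CMC. In the other set it had 11, 1 and 5 counts in input, 6, 8 and 2 in Ψ-IP and 0, 0 and 3 in flow-through. Ψ-IP and input libraries overlapped (log2 difference 0.36, SE 0.72, edgeR adjusted p = 0.76). The nearest abundant 5′ end lies 2 nt upstream, at 69886061, with 45435 counts in the mock libraries together, 25152 with CMC, 9826 in input, 10593 in Ψ-IP and 2407 in flow-through. These sums depend on library depth. In CPM the means were 339 ± 24 in mock and 241 ± 40 with CMC (SD, n = 3). They were 162 ± 8 in input, 231 ± 22 in Ψ-IP and 45.5 ± 17.4 in flow-through. The main 3′ ends of RNAs that start at 69886061 are 69886031, 69886032 and 69886033, and they held 31.2%, 21.9% and 28.4% of mock counts and 29.4%, 25.2% and 28.5% of CMC counts at 69886061. Of the CMC counts at 69886059 the same ends held 20.8%, 45.8% and 21.1%, so the most frequent end was 69886031 at 69886061 and 69886032 at 69886059. In mock only 50% of the few counts at 69886059 had one of these 3 ends. In coordinates, the CMC locus is the 30-nt locus of 69886061 without its first 2 bases. No file at hand holds the sequence here.

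Around 69886061 the difference between mock and CMC lay on the downstream side. As a percent of the counts at 69886061 itself, starts 1 nt downstream were 0.16% ± 0.04 in mock and 10.1% ± 1.4 with CMC, and starts 2 nt downstream were 0.10% ± 0.02 and 11.5% ± 1.8 (SD, n = 3). Starts 3 nt downstream were 0.32% ± 0.01 and 2.51% ± 0.23. Starts 2 nt upstream, by contrast, were 2.33% ± 0.10 in mock and 2.03% ± 0.18 with CMC. In input and Ψ-IP the starts 1 nt downstream were 1.67% and 1.43%.

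**Figure D5:**
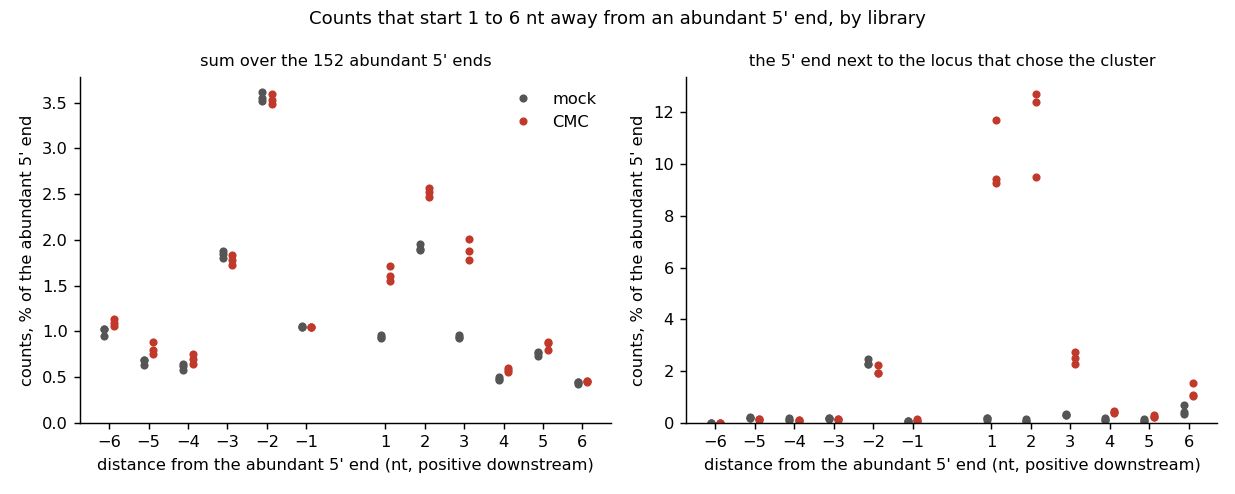
Counts that start 1 to 6 nt upstream (negative) or downstream of an abundant 5′ end, as a percent of the counts at that end. Each mock or CMC library is 1 point at each distance. The left panel sums 152 abundant 5′ ends of the cluster, 69886061 among them. The right panel shows 69886061 alone, where CMC libraries average 10.1% and 11.5% at 1 and 2 nt downstream and mock libraries 0.16% and 0.10%.

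Other loci of the cluster also had far more counts with CMC. Of 3341 loci with at least 100 counts in the CMC libraries together, 25 (0.748%) had over 5 times and 16 (0.479%) over 20 times the mock count (counts plus 1 in both), beside 0.351% and 0.105% of 108369 such loci in all clusters. Since a locus of this kind chose the cluster, these shares are a description. Away from 69886061 the counts were 16 (0.482%) and 9 (0.271%). All 25 start 1 to 6 nt downstream of an abundant 5′ end, as do 168 (5.03%) of the 3341. Of these, 9 lie at 69886061 and 9 at 69902380 on the minus strand, 3 at 69919854 on the plus strand and 1 each at 69907590, 69913438, 69919271 and 69919896. At 69902380 the starts 3 nt downstream were 0.15% ± 0.01 of the parent end in mock and 4.00% ± 0.66 with CMC. The 25-nt locus 69902353-69902377 at this position had 23 counts in mock and 1312 with CMC. At 69919854 the starts 3 nt downstream were 0.80% ± 0.06 in mock and 4.92% ± 0.96 with CMC. The offset with the largest difference was 1 to 2 nt at 69886061 and 3 nt at both other ends.

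Over 152 5′ ends, each with at least 1000 mock counts and over 5 times the count of any start within 6 nt, starts 1 to 3 nt downstream were 3.76%, 3.79% and 3.84% in the mock libraries and 5.86%, 5.95% and 6.29% with CMC. Starts 1 to 3 nt upstream were 6.45% ± 0.08 in mock and 6.36% ± 0.003 with CMC. The 5′ ends were selected from mock counts alone, after the CMC locus had been seen. They include 69886061, next to the locus that chose the cluster, so the sums and counts given here are a description. At 71 of the 152 every CMC library was above every mock library downstream, and at 4 every one was below, beside 44.9% and 0.528% of 4731 such 5′ ends over all clusters. The difference in percent exceeded 5 points at 10 ends (6.58%), beside 5.9% of the 4731. It was largest at 69886061, with 0.59% in mock and 24.2% with CMC, followed by 69919271 with 1.03% and 11%. In the other clusters the same measure was 4.04% ± 0.03 in mock and 5.47% ± 0.24 with CMC. In input, Ψ-IP and flow-through, prepared with the other kit, downstream starts in this cluster were 9.51%, 9.61% and 9.32%.

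The total of the cluster differed little between mock and CMC. Its share of counts was 2.95% ± 0.04 in mock and 3.04% ± 0.05 with CMC, a fitted log2 difference of 0.05. The plus arm differed by 0.09 and the minus arm by -0.05. The largest falls named by the rule were close to 1 on the log2 scale. In the Lx7 LINE-1 fragment on the minus arm, 69884734-69884763 had 5.84, 3.55 and 3.42 CPM in mock and 2.11, 2.69 and 1.57 CPM with CMC, and 69884732-69884760 had 5.33 ± 0.73 and 2.71 ± 0.78 CPM. In flow-through these were at 0.590 ± 0.340 and 1.02 ± 0.58 CPM, beside 7.04 ± 0.40 and 5.43 ± 0.51 CPM in input. 69902361-69902392 had 36.3, 40.3 and 49.6 CPM in mock and 26.5, 17.1 and 22.0 CPM with CMC.

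Of the loci around the CMC locus, 38 that overlap it were tested for Ψ-IP against input. With edgeR 0 of them passed the adjusted threshold and 3 had an unadjusted p under 0.05, while DESeq2 called 1 of the 22 to which it gave an adjusted p. In flow-through against input 8 of the 38 were lower and 0 higher (9.73% and 6.45% of all loci), and in Ψ-IP against flow-through 9 were higher and 0 lower (9.3% and 3.56% of all loci). The 38 overlap each other and have 14 distinct 5′ ends, and 6 of the 8 and 6 of the 9 start at 69886061, so they are not separate results. The 31-nt locus 69886031-69886061 of the abundant 5′ end had 84.2, 75.8 and 80.2 CPM in input, 121, 107 and 97.8 CPM in Ψ-IP and 11.4, 23.2 and 21.0 CPM in flow-through. It was lower in flow-through than in input (log2 difference -2.32, SE 0.23, edgeR adjusted p = 6.0e-08) and higher in Ψ-IP than in flow-through (log2 difference 2.80, SE 0.27, edgeR adjusted p = 4.9e-23), while Ψ-IP and input differed by 0.30 (SE 0.20, edgeR adjusted p = 0.27). With CMC its mean went from 106 ± 9 to 70.7 ± 12.8 CPM, and the libraries did not overlap.

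The pattern looked for in a pseudouridylated RNA is a higher level in Ψ-IP and a lower level with CMC. Of 8987 cluster loci fitted in both sets 12 (0.134%) had it, beside 0.298% of 293568 loci in all, counts given as a description because CMC values chose the cluster. With the replicate number as a block in the CMC fit, 23 cluster loci had it, all 12 among them. The 3 most abundant are described here. The most abundant was 69914094-69914122 on the plus strand, with 123, 129 and 135 CPM in mock, 99.2, 83.1 and 93.8 CPM with CMC, 10.5 ± 3.4 CPM in input and 19.8 ± 3.9 CPM in Ψ-IP (log2 difference 0.79, SE 0.23, edgeR adjusted p = 0.0040). Its call was lost without the first or the third input library or the second or the third Ψ-IP library (log2 differences of 0.55, 0.80, 0.65 and 0.71) and with DESeq2 (adjusted p = 0.013). 69914643-69914673 on the plus strand had 31.4, 25.7 and 26.1 CPM in input, 54.8, 58.7 and 70.3 CPM in Ψ-IP and 5.05 ± 2.08 CPM in flow-through (log2 difference 1.01, SE 0.21, edgeR adjusted p = 2.4e-05), and 3.78 ± 0.41 and 2.35 ± 0.50 CPM in mock and CMC. The third was 69902361-69902392, described above, whose rise in Ψ-IP of 1.10 (SE 0.34, edgeR adjusted p = 0.00855) was lost without any 1 of the 3 input libraries, without the second or the third Ψ-IP library (log2 differences of 1.29, 1.11, 0.90, 0.96 and 1.16) and with DESeq2 (adjusted p = 0.022).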

How the data were processed

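The authors sequenced testis small RNA in 15 libraries, trimmed reads with Cutadapt, mapped them to mm10 with Bowtie2 and annotated them with BEDTools against repeats and a piRNA cluster database. The deposited values are raw read counts per locus, as the file values show. How reads with several matches were placed is not given in the sources used here. The labels name lengths of 17 to 40 nt. Starts in the files were taken to count from 0, and positions are printed counted from 1. The title of each mock library says untreated, while the treatment label says mock treated.

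Counts were summed over the cluster, each strand, 1-kb windows of 5′ ends and single 5′ ends, over every cluster. CPM values are counts per 1000000 of a library's total piRNA count. Fits used edgeR 4.0.16 (R 4.3.3) with TMM scaling, quasi-likelihood F tests and Benjamini-Hochberg adjustment over all features tested, with an adjusted p threshold of 0.01. SE is the log2 difference divided by the square root of F. DESeq2 1.42.0 was an alternative, being the tool of the authors. Loci and 5′ ends needed more than 20 counts in a set, and totals and windows an average of at least 100 per Ψ-IP library (for CMC, per mock library). TMM placed fitted locus differences of Ψ-IP against input 0.18 lower, on the log2 scale, than ratios of CPM. Single shares used two-sided exact permutation tests of 3 against 3 libraries. The test was run on simulated counts with a single fixed spread between libraries and changes only in features averaging at least 100 counts. That run does not cover loci with fewer counts or the spread between these libraries.

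Loci named are the CMC locus and its overlapping loci, the 10 with the highest mean CPM, and, for each contrast, those with the largest rise or fall (5 for Ψ-IP, 3 for CMC) that averaged at least 100 counts, passed the threshold and changed the same way in each of the 9 library pairs. The 3 most abundant loci higher in Ψ-IP and lower with CMC, the 3 windows with most counts on each strand and the 3 largest window rises and falls complete the rule. The cluster, the lists and the tests were chosen with earlier results of these data known. Libraries of a group differed beyond sampling noise (chi-square per degree of freedom 1.73 to 6.34 over cluster loci) and were kept apart. In the mock and CMC set, deviations from group means correlated between libraries of the same number (r = 0.115, 0.135 and 0.278 over 87515 loci), each above the 0.1 taken to mark pairs, although only 2 of 3 CMC libraries correlated best with the mock library of their own number. The fits reported have no block, and blocked values are given where they change a count. For CMC against mock the threshold served only to choose the loci named and to count those also higher in Ψ-IP. Other locus counts under it are not reported.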

Additional observations from a re-analysis of the deposited data

How the results depend on the processing

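Alternatives were another scaling, DESeq2's Wald test, other minimum counts, lengths of 24 to 33 nt, loci outside repeats, the replicate number as a block, all 9 Nextflex libraries in 1 fit and leaving out each library. The Ψ-IP to input difference of the cluster stayed past the threshold in each of them, from -0.12 to -0.09. Counts of changed loci moved with the minimum count and with the libraries used, and the cause was not tested.

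For the cluster total, Ψ-IP against flow-through passed with lengths of 24 to 33 nt (-0.10, adjusted p = 0.0020), and CMC against mock ranged from 0.025 to 0.067 when 1 library was left out, the lowest without the first CMC library. The minus-strand total lost its call with DESeq2's size factors (-0.078), the Wald test (-0.078) and no minimum (-0.072), and ranged from -0.11 to -0.082 with 1 library left out. The plus-strand total lost it with the size factors (-0.083) and the Wald test (-0.083), and ranged from -0.12 to -0.078.

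Loci changed in Ψ-IP against input, 3927, were 2460 with the Wald test, 941 when loci needed an average of 50 counts or more (53.4% of the 1763 tested, beside 52.3% of all, in place of 18.2% and 16.1%), 2360 with all 9 libraries in 1 fit and 2207 to 3888 with 1 library left out. Higher loci alone fell from 1127 to 603 with a minimum of more than 5 counts. Against flow-through, 2806 became 910 with the average of 50 (51.6% of those tested, beside 53.8% of all) and 1908 to 2338 with 1 library left out. Changed 5′ ends, 2187, were 985 with the average of 50 (55.9% of 1761, beside 54.3% of all) and 1479 to 2166 with 1 library left out. Changed windows, 38, were 25 to 36. The Ψ-IP to input difference in plus-strand share, -0.09 points, reversed to 0.14, 0.18 and 0.11 without the first or second Ψ-IP or the third input library, within -0.58 to 0.18. The 30-nt share reversed to 2.22 with each locus counted once, by which abundant loci lose their weight. Of 418 values for 34 named loci and windows, 393 kept direction and call, 23 lost the call, 2 gained it and 0 reversed.

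Same-numbered Ψ-IP and input libraries did not all deviate together (r = 0.240, 0.289 and -0.031), and 2 of 3 Ψ-IP libraries correlated best with the input of their own number. With the replicate number as a block, the cluster stayed at -0.10, the minus arm at -0.09 and the plus arm at -0.10, with 3414 loci, 2123 5′ ends and 40 windows changed. Sign-flip tests of the shares within numbers, which cannot go below 0.25, gave exact p of 0.75 for the plus strand, 0.25 for 30 nt and 0.25 for repeats.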
